A study of Mus musculus with 6 samples.

Results

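The genes described here are the mouse members of 5 families of detoxifying enzymes. The families are the aldehyde dehydrogenases (Aldh), aldo-keto reductases (Akr), glutathione S-transferases (Gst), UDP-glucuronosyltransferases (Ugt) and epoxide hydrolases (Ephx). The Gst genes are those of the alpha, kappa, mu, omega, pi, theta and zeta classes. All genes were chosen by gene symbol, with Aldh1l2 left out by the rule. Each was read from its brightest probe set among those listing a single gene. The rule found 69 of the 19937 named genes on the array: 20 Aldh, 15 Akr, 19 Gst, 11 Ugt and 4 Ephx genes. Expression was measured on 6 Affymetrix arrays of total RNA from A316 cells, a mouse adenocarcinoma line, from a study of pulmonary tumours, that carries a knockout of Cebpa in both groups. Of these, 3 arrays came from cells given PTC-209, an inhibitor of the Polycomb protein Bmi1, in 0.5% DMSO, and 3 from cells given 0.5% DMSO alone. Neither the dose nor the length of treatment is stated in the labels. In the labels the source, genotype and treatment fields name this line, whereas a description field of the samples speaks of embryos; the former were followed here. The labels do not say whether the replicates were separate cultures, so the p-values rest on a spread between 6 samples that may be technical only.

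These enzymes act in sequence on reactive or foreign molecules. Epoxide hydrolases open epoxides with water, aldehyde dehydrogenases oxidise aldehydes to acids, and aldo-keto reductases reduce aldehydes and ketones to alcohols. Glutathione S-transferases then join electrophiles to glutathione, and UDP-glucuronosyltransferases join hydroxyl and acid groups to glucuronic acid, which makes the products soluble for export. Several members also have a fixed metabolic substrate, such as retinaldehyde, proline or GABA intermediates. Many are known targets of the oxidant-sensing factor NRF2 or of the aryl hydrocarbon receptor, and high Aldh1a1 is widely used as a mark of stem-like tumour cells.

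Some members are near copies from the same gene cluster, and the start regions of a few pairs were compared to show how alike they are. Windows of 250 bases before to 50 bases after the start (RefSeq, GRCm38.p6) were found for 59 of the 69 genes, with 70 windows in all, and windows of different genes were compared in 2403 pairs. Of these, 5 pairs shared an unbroken identical run of at least 40 bases. In 3 of the 5, the pairs among Ugt2b5, Ugt2b37 and Ugt2b38 with runs of 82, 68 and 62 bases, neither gene passed the test. The pair below, Akr1c13 and Akr1c12, are hydroxysteroid dehydrogenases of 1 cluster, with Akr1c19 between them, and it is shown because both were lower with PTC-209. Capitals mark the identical run of 75 bases, which ends 81 bases before the start of Akr1c13 and 78 before that of Akr1c12. The Akr1c13 stretch is chr13:4191017-4191121 on the plus strand and the Akr1c12 stretch is chr13:4279462-4279566 on the minus strand.
Akr1c13: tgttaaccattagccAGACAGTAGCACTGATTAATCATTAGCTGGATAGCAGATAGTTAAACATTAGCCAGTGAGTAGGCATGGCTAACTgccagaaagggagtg
Akr1c12: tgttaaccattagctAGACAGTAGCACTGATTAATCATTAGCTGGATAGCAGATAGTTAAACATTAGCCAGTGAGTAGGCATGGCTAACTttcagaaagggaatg

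Aldh1a1 and its neighbour Aldh1a7 shared a run of 65 bases at the same distance from the start, between 94 and 30 bases before it in both genes. They are shown because Aldh1a1 had the largest difference of the Aldh genes chosen by the rule, whereas Aldh1a7 stayed below the median brightness in both groups. The Aldh1a1 stretch is chr19:20601859-20601953 on the plus strand and the Aldh1a7 stretch is chr19:20727571-20727665 on the minus strand, with the identical run in capitals.
Aldh1a1: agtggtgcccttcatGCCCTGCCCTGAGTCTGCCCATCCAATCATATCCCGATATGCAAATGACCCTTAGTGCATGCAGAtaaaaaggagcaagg
Aldh1a7: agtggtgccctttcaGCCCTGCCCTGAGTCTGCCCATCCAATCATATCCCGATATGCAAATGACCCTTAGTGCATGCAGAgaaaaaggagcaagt

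Windows were also searched on both strands for the core of the antioxidant response element, TGACNNNGC, the site bound by NRF2 with a small MAF protein. It was found in 7 of the 70 windows, or 10.0%, against 12.4% of 32851 windows of the same length over all genes. Of the 28 members past the threshold 23 had a window and could be searched. Among these 23, Gsta3 and Aldh9a1, which were higher with PTC-209, and Gstm5, which was lower, held a match. These 3 stretches are shown with the match in capitals: Gsta3 at chr1:21240434-21240502 (plus strand, match 121 bases before the start), Aldh9a1 at chr1:167349874-167349942 (plus strand, 87 bases before) and Gstm5 at chr3:107895782-107895850 (plus strand, 42 bases before).
Gsta3: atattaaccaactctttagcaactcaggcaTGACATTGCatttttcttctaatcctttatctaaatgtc
Aldh9a1: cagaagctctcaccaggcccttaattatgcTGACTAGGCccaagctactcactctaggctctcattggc
Gstm5: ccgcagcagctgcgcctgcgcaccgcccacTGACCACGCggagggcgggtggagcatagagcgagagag

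The core of the xenobiotic response element, GCGTG, was present in 24.3% of the 70 windows against 32.4% of all windows. The composite C/EBP and ATF element TGATGNAA was found in 0 of the 70, against 3.97% of all windows. A match describes the letters of these windows and says nothing of binding.

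Values are log2 expression as the authors normalised them, and the median over all 28192 tested probe sets was 4.33. Probe sets below that median are called dim here, and where the dimmer group of a gene was dim the levels of both groups are given and no fold. A log2 difference printed for such a gene rests on a dim level. Array medians ran from 4.28 to 4.35, and array pairs correlated at 0.992 to 0.996 when of the same group and at 0.970 to 0.974 otherwise. Bmi1 was itself 1.45-fold lower with PTC-209 (adjusted p = 0.00424), and Cebpa was dim in both groups, at 3.65 and 3.79. The epithelial markers Krt8, Krt18, Krt7, Krt19, Cdh1 and Epcam were bright in all arrays. The lung markers Sftpc, Scgb1a1 and Nkx2-1 were dim. Of the 7 alveolar type 2 markers 2 were not dim: Abca3, at 5.96 with DMSO and 5.90 with PTC-209, and Sftpa1, near the median at 4.33 and 4.51. With PTC-209 4 of the 6 epithelial markers, all keratins, were lower, and Cdh1 was higher; their summed level on the log2 scale was 13.12 to 13.28 with DMSO and 12.30 to 12.49 with PTC-209. None of the 7 alveolar type 2, 3 club, 3 basal, 5 fibroblast and 5 hepatocyte markers passed in limma, and 1, Pdgfra, had an unadjusted p under 0.05 (0.0225). Of 3 endothelial markers 1 was lower, Cdh5 (summed level 9.47 to 9.56 and 8.03 to 8.43), and of 4 leukocyte markers 1 was higher, Cd68 (summed level 7.66 to 7.74 and 10.04 to 10.12). Pecam1 and Ptprc, which define those cell types, were dim in both groups. Some other markers were not: Cd3e, at 4.38 with DMSO and 4.53 with PTC-209, lay above the median in both groups. So did the fibroblast markers Col1a1, Col1a2, Col3a1 and Pdgfra, the basal marker Krt14 and the hepatocyte marker Apoa1. In bulk RNA fewer cells of one kind and less RNA per cell cannot be told apart, and the part of the keratin, Cdh5 and Cd68 changes in the results was not tested.

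With PTC-209, 10 of the 69 detoxifying enzyme genes were higher, 18 were lower and 41 did not pass the test (limma, adjusted p under 0.05 over all probe sets). Among all 19937 genes 12.9% were higher and 13.7% lower, so the share of members that were higher, 14.5%, was near the background, and the share that were lower, 26.1%, was above it. The fitted difference was at least 2-fold for 2 genes that were higher, Gsto2 and Aldh18a1. It was so for 6 that were lower: Gstm2, Aldh1a1, Ephx1, Akr1c12, Aldh5a1 and Aldh3a1. Over all 19937 genes, 444 were higher and 857 lower by at least 2-fold. The levels of Gstm2, Aldh5a1 and Aldh3a1 with PTC-209 were dim, so their size is uncertain. The median log2 difference of the 69 genes was -0.042, against 0.026 over all genes.

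Many members were dim, and dim genes seldom passed, both among the members and among all genes. By the mean of all 6 arrays 32 of the 69 genes, or 46.4%, lay above the median brightness, against 53.8% of all genes. Of these 32, 9 were higher and 16 lower, shares of 28.1% and 50%, whereas 22.1% and 23.5% of all genes above the median were higher and lower. Of the 37 dim members 3 passed (8.11%): Gsta3 was higher, and Aldh1l1 and Ugt2b34 were lower. Dim genes numbered 9204 among all genes. Of the 2565 genes that were higher 2371 lay above the median, and of the 2741 that were lower 2525 did. The 3 PTC-209 arrays lay entirely above or below the 3 DMSO arrays for 33 of the 69 genes (47.8%), 12 above and 21 below. Over all 19937 genes the same held for 40.5%, with 4208 above and 3858 below.

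**Figure D1:**
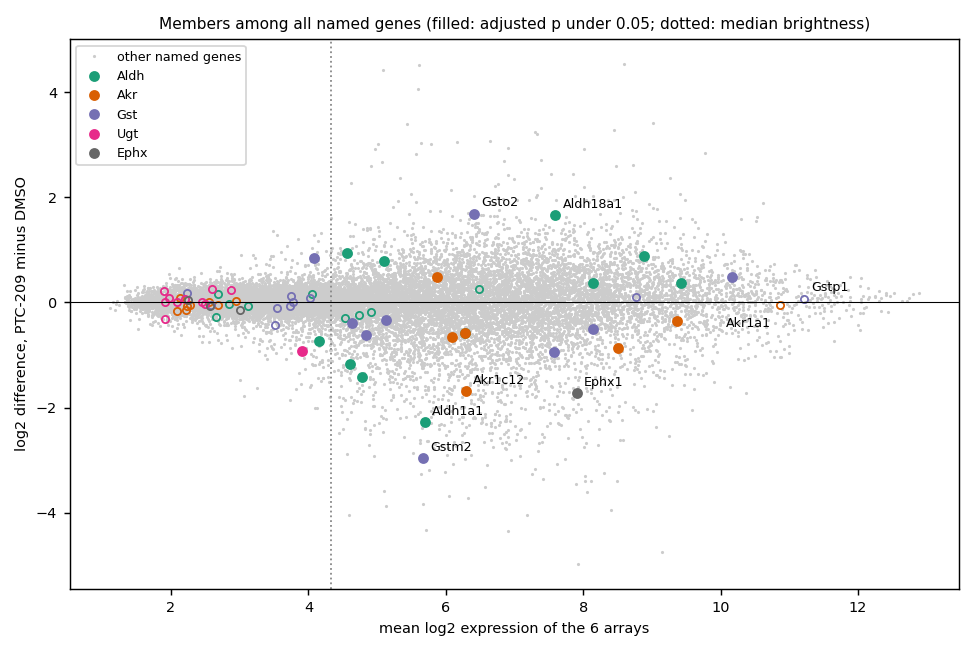
Log2 difference (PTC-209 minus DMSO, vertical axis) against the mean log2 expression of the 6 arrays (horizontal axis) for all 19937 named genes in grey and the 69 members coloured by family. Filled circles passed the test, the dotted line is the median brightness of 4.33, and all 11 Ugt genes lie left of it.

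**Figure D2:**
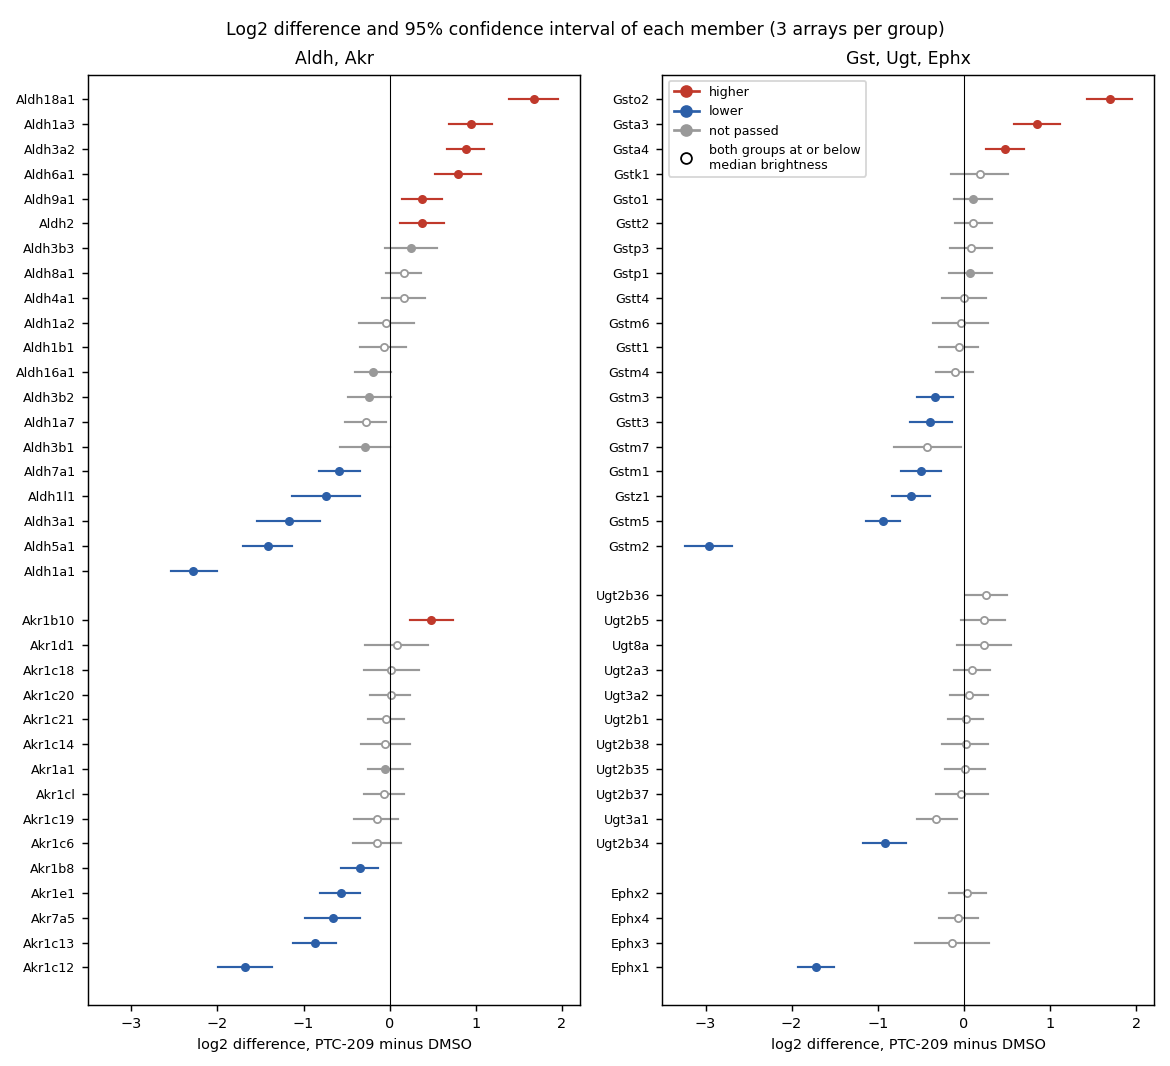
Log2 difference of each of the 69 genes with its 95% confidence interval, from 3 arrays per group, ordered within each family. The values run from -2.96 for Gstm2 to 1.69 for Gsto2, and open circles are genes that were dim in both groups.

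The aldehyde dehydrogenases changed in both directions: of 20 genes, 6 were higher, 5 lower and 9 did not pass. Aldh1a1, which makes retinoic acid from retinaldehyde, had the largest difference. It read 7.05, 6.66 and 6.78 with DMSO and 4.57, 4.62 and 4.47 with PTC-209. All 3 treated arrays lay far below the controls and just above the median brightness. The means were 6.83 ± 0.20 and 4.55 ± 0.078 (SD, n = 3), a 4.85-fold lower level (95% CI 4.04 to 5.83, adjusted p = 1.26e-06). Aldh1a3, which catalyses the same reaction, went the other way, from 4.0, 4.12 and 4.17 to 5.14, 4.85 and 5.13. Its DMSO mean of 4.10 ± 0.091 was dim and its PTC-209 mean of 5.04 ± 0.17 was not (log2 difference 0.94, 95% CI 0.69 to 1.19, adjusted p = 2.13e-04). The groups did not overlap for either gene, and the third retinaldehyde dehydrogenase, Aldh1a2, was dim in both groups at 2.86 and 2.82 (adjusted p = 0.903).

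The aldehyde dehydrogenases of the Aldh3 group also split. Aldh3a2, the fatty aldehyde dehydrogenase of the endoplasmic reticulum, read 8.45, 8.48 and 8.42 with DMSO and 9.43, 9.31 and 9.25 with PTC-209. It was 1.84-fold higher (95% CI 1.59 to 2.13, adjusted p = 9.98e-05), with every treated array above every control. Its neighbour in the genome, Aldh3a1, which oxidises aromatic and medium-chain aldehydes and is a known aryl hydrocarbon receptor target, read 5.26, 5.33 and 4.97 with DMSO. With PTC-209 it read 4.37, 3.78 and 3.90, of which only the first was above the median brightness. Its means were 5.19 ± 0.19 and 4.02 ± 0.31 (SD, n = 3, adjusted p = 5.62e-04). Aldh3b1, Aldh3b2 and Aldh3b3 did not pass, with log2 differences of -0.29, -0.24 and 0.25 (adjusted p = 0.149, 0.186 and 0.237). Aldh3b3 has 2 further probe sets, both dim, with log2 differences of -0.14 and -0.12 (adjusted p = 0.719 and 0.643).

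Members that serve amino acid and folate metabolism made up much of the rest. Aldh18a1, the synthase that starts proline synthesis from glutamate, read 6.97, 6.65 and 6.66 with DMSO and 8.60, 8.40 and 8.27 with PTC-209. It was 3.17-fold higher (95% CI 2.60 to 3.87, adjusted p = 1.30e-05) and no arrays overlapped. Aldh4a1, which acts in the breakdown of proline, was dim at 3.97 and 4.13 and did not pass (adjusted p = 0.369). Aldh5a1, which clears succinate semialdehyde in the breakdown of GABA, went from 5.61, 5.32 and 5.51 to 4.08, 3.86 and 4.26. All 3 treated arrays were dim, and the means were 5.48 ± 0.15 and 4.07 ± 0.20 (SD, n = 3, adjusted p = 3.86e-05).

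Aldh6a1, a mitochondrial enzyme of valine breakdown, was 1.73-fold higher, with means of 4.71 and 5.50 (adjusted p = 8.95e-04). Aldh7a1, which acts in lysine breakdown, was 1.5-fold lower (adjusted p = 0.00275). Aldh1l1, which releases the one-carbon group of formyl-tetrahydrofolate, was lower, at 4.53 ± 0.34 and 3.79 ± 0.20 (SD, n = 3, adjusted p = 0.0115). That call was lost without the array of PTC-209 replicate 2 (adjusted p = 0.0513).

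Aldh2, the mitochondrial enzyme that oxidises acetaldehyde, was the brightest of the family. It read 9.41, 9.25 and 9.05 with DMSO and 9.69, 9.62 and 9.54 with PTC-209, so that the lowest treated array exceeded the highest control. The difference was 1.30-fold (adjusted p = 0.0390). It passed only narrowly: without any 1 of 5 of the arrays (all but DMSO replicate 1) the adjusted p was 0.0623 to 0.137, and it missed the threshold after each of the 3 renormalisations, with adjusted p of 0.0649 by quantiles, 0.0981 by cyclic loess and 0.0589 by median centring. Aldh9a1, which acts in carnitine synthesis, was also 1.30-fold higher (adjusted p = 0.0257). Leaving out DMSO replicate 2 or 3, or the PTC-209 array of replicate 1 or 2, ended its call (adjusted p 0.0591 to 0.0944). Aldh16a1 had a log2 difference of -0.19 and did not pass (adjusted p = 0.197).

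**Figure D3:**
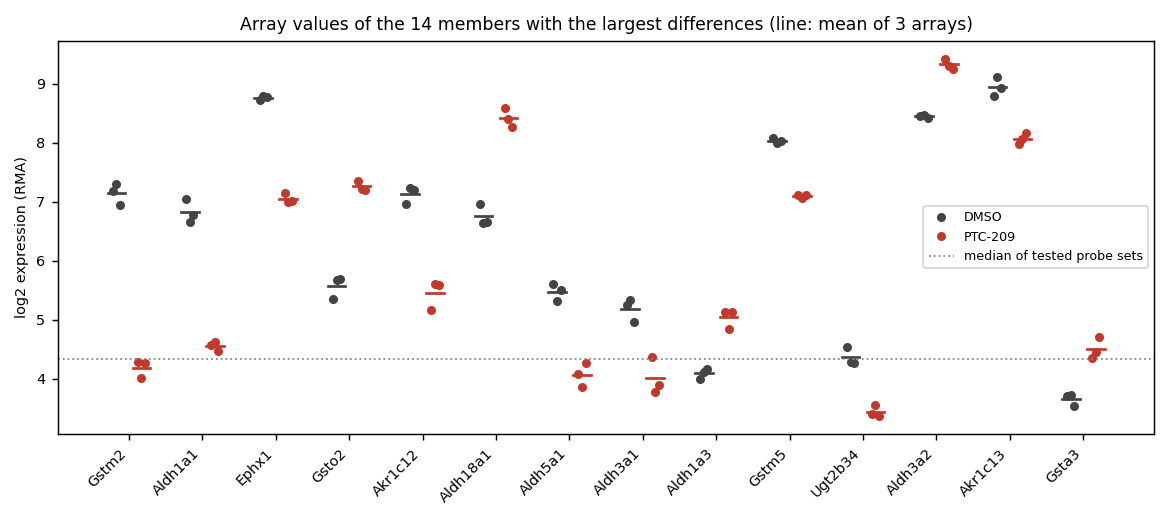
Log2 expression on each array for the 14 genes with the largest differences among those past the threshold, DMSO in grey and PTC-209 in red, with a line at the mean of 3 arrays. The groups do not overlap for any of the 14, and the treated arrays of Gstm2, Aldh5a1 and Ugt2b34 all fall below the dotted median brightness.

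Of the 15 aldo-keto reductases 1 was higher, 5 were lower and 9 did not pass. Akr1c12 and Akr1c13, the pair whose start regions are shown above, were the members with the largest differences. Akr1c12 read 6.97, 7.24 and 7.20 with DMSO and 5.17, 5.61 and 5.59 with PTC-209. That was 3.21-fold lower (95% CI 2.59 to 3.98, adjusted p = 2.19e-05). Akr1c13 read 8.79, 9.12 and 8.93 with DMSO and 7.99, 8.06 and 8.16 with PTC-209, a 1.83-fold lower level (95% CI 1.54 to 2.18, adjusted p = 3.37e-04). Neither gene's groups overlapped. The other 7 Akr1c genes were dim in both groups and did not pass. Since these paralogs are near copies, signal may be shared between their probe sets, which was not tested.

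Akr1e1, which lies in the same cluster of 9 neighbouring genes and reduces anhydrofructose, was 1.49-fold lower (adjusted p = 0.00307). Akr7a5, an aflatoxin aldehyde reductase, was 1.59-fold lower (adjusted p = 0.00703). The neighbours Akr1b8 and Akr1b10, reductases of retinaldehyde and other aldehydes, were called in opposite directions. Akr1b8 read 9.64, 9.52 and 9.45 with DMSO and 9.19, 9.22 and 9.15 with PTC-209, which was 1.27-fold lower (adjusted p = 0.0233). Akr1b10 read 5.70, 5.78 and 5.42 with DMSO and 6.10, 6.10 and 6.13 with PTC-209, which was 1.39-fold higher (adjusted p = 0.0115). The Akr1b8 call was lost without any 1 of 5 of the arrays (all but DMSO replicate 3), with adjusted p of 0.0545 to 0.0740.

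Akr1a1, the general aldehyde reductase that also serves ascorbate synthesis in mice, was the brightest of the family. It read 10.91, 10.89 and 10.87 with DMSO and 10.88, 10.82 and 10.82 with PTC-209. The groups overlapped, and the log2 difference was -0.05 (95% CI -0.25 to 0.15, adjusted p = 0.775).

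Of the 19 glutathione S-transferase genes 3 were higher, 6 were lower and 10 did not pass. In the mu class, 4 of 7 genes were lower and the other 3 were dim and did not pass, with a median log2 difference of -0.43. Gstm2 had the largest difference of all 69 genes. It read 7.19, 7.31 and 6.95 with DMSO and 4.28, 4.02 and 4.26 with PTC-209, so that a clearly measured transcript became dim on all 3 treated arrays. Its means were 7.15 ± 0.18 and 4.19 ± 0.14 (SD, n = 3), a log2 difference of -2.96 (95% CI -3.24 to -2.69, adjusted p = 5.29e-07).

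Gstm5 read 8.08, 8.0 and 8.04 with DMSO and 7.12, 7.07 and 7.11 with PTC-209, which was 1.92-fold lower (95% CI 1.67 to 2.20, adjusted p = 4.87e-05). Gstm1, the most abundant mu enzyme of mouse liver, read 8.46, 8.44 and 8.28 with DMSO and 7.90, 7.99 and 7.79 with PTC-209, which was 1.42-fold lower (adjusted p = 0.00529). Gstm3 was 1.26-fold lower (adjusted p = 0.0273), but its second probe set read 4.29 in both groups (log2 difference -0.01, adjusted p = 0.982). The call was also lost without any 1 of 5 of the arrays (all but PTC-209 replicate 2), with adjusted p of 0.0567 to 0.0944, and on the mean of both probe sets (adjusted p = 0.275). In the RefSeq table of GRCm38.p6 the 7 mu genes are neighbours in 1 cluster.

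Both alpha class genes among the members were higher. Gsta1 and Gsta2 were measured only by probe sets listing several genes, which are described in the last section. Gsta4, which conjugates the lipid peroxidation product hydroxynonenal, read 10.02, 9.99 and 9.78 with DMSO and 10.42, 10.41 and 10.38 with PTC-209, a 1.39-fold higher level (adjusted p = 0.00642). Gsta3 went from 3.71, 3.72 and 3.54 to 4.35, 4.46 and 4.71. It was dim with DMSO, at 3.66 ± 0.10, and above the median with PTC-209, at 4.50 ± 0.18 (SD, n = 3, adjusted p = 5.53e-04).

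Among the omega, zeta, theta, pi and kappa classes, Gsto2, a dehydroascorbate reductase, had the largest upward difference of the 69 genes. It read 5.36, 5.67 and 5.70 with DMSO and 7.36, 7.22 and 7.21 with PTC-209, a 3.22-fold higher level (95% CI 2.69 to 3.87, adjusted p = 6.82e-06) with no overlap. Its neighbour Gsto1 was brighter, at 8.71 ± 0.072 and 8.82 ± 0.11, and did not pass (log2 difference 0.11, 95% CI -0.12 to 0.33, adjusted p = 0.532). Gstz1, the maleylacetoacetate isomerase of tyrosine breakdown, was 1.54-fold lower (adjusted p = 0.00136).

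Gstt3 was 1.31-fold lower (adjusted p = 0.0298), a call that ended when the array of replicate 1 or 2 of either group was left out (adjusted p 0.0616 to 0.119). The other 3 theta genes, Gstt1, Gstt2 and Gstt4, were dim and did not pass. Gstk1, of the kappa class, was dim at 2.14 with DMSO and 2.32 with PTC-209 and did not pass (adjusted p = 0.477). Gstp1, the pi class enzyme abundant in many carcinomas, was the brightest of all members. It read 11.26, 11.12 and 11.18 with DMSO and 11.45, 11.18 and 11.14 with PTC-209. The groups overlapped (log2 difference 0.07, 95% CI -0.18 to 0.32, adjusted p = 0.727).

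**Figure D4:**
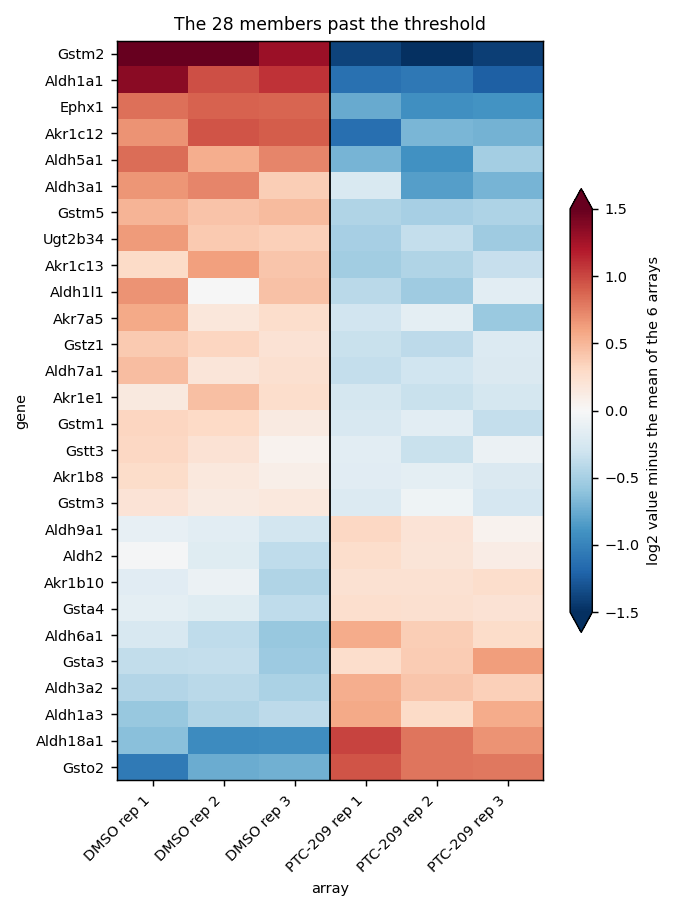
Log2 value on each array minus the mean of the 6 arrays for the 28 genes past the threshold, with red above and blue below that mean and the colour scale ending at 1.5 in either direction. The upper 18 genes are lower and the other 10 higher on all 3 PTC-209 arrays.

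The epoxide hydrolases were carried by 1 gene. Ephx1, the microsomal enzyme that opens epoxides of drugs and aromatic hydrocarbons, read 8.73, 8.79 and 8.78 with DMSO and 7.15, 6.99 and 7.01 with PTC-209. The replicates lay close together and the means of 8.77 ± 0.035 and 7.05 ± 0.088 (SD, n = 3) differed 3.29-fold (95% CI 2.85 to 3.81, adjusted p = 1.66e-06). Ephx2, the soluble enzyme that acts on fatty acid epoxides, was dim at 2.22 and 2.26, and Ephx3 and Ephx4 were dim too. None of these 3 passed in limma, and 0 of the 3 had an unadjusted p under 0.05.

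The UDP-glucuronosyltransferases were scarcely measured. All 11 genes were dim by the mean of the 6 arrays, and Ugt2b34 alone passed. It read 4.54, 4.29 and 4.26 with DMSO and 3.40, 3.55 and 3.37 with PTC-209, with means of 4.36 ± 0.15 and 3.44 ± 0.10 (SD, n = 3, adjusted p = 2.25e-04). The treated arrays all lay below the controls. The 7 other Ugt2 genes, which lie in the same cluster of 8 neighbours, did not pass, nor did the Ugt3 genes and Ugt8a.

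The regulators of these families were read beside them. NRF2, encoded by Nfe2l2, was 10.67 with DMSO and 11.09 with PTC-209 (log2 difference 0.42, adjusted p = 0.00702). Its repressor Keap1 was lower, at 5.61 and 4.90 (log2 difference -0.71, adjusted p = 0.00455). Of 9 NRF2 regulators 6 were higher and 1, Keap1, was lower, with Mafk, Mafg and Nfe2l1 at log2 differences of 1.30, 1.16 and 1.10. Bach1, a repressor that competes with NRF2 for its sites, was among those that were higher (log2 difference 0.73, adjusted p = 3.73e-04). Of 23 other known NRF2 targets, such as the cystine carrier Slc7a11 (4.53), haem oxygenase Hmox1 (3.27), Txnrd1 (1.77) and Taldo1 (1.42), 14 were higher and 1 was lower, with a median log2 difference of 0.49. Nqo1, a much used NRF2 target, was dim at 3.14 and 3.22 (adjusted p = 0.748).

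Of 14 xenobiotic receptors and partners 2 were higher, Arnt (log2 difference 1.14) and Rxrb (0.55), and 1 was lower, Pparg (-0.39). The aryl hydrocarbon receptor Ahr had a log2 difference of 0.29 and did not pass (adjusted p = 0.0559). The pregnane receptor Nr1i2, the androstane receptor Nr1i3 and Ppara were dim and did not pass (adjusted p = 0.626, 0.610 and 0.678). Of 7 aryl hydrocarbon receptor targets 1, Tiparp, was higher and 2 were lower, Aldh3a1 and Cyp1a1, which was dim at 3.51 and 3.21.

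Enzymes and carriers that act before or after the 5 families were counted in the same way, and a few genes stand in more than 1 list. In the retinoid pathway, which includes 4 of the members, 4 of 18 genes were higher and 3 lower. Besides Aldh1a1, Dhrs3, which reduces retinaldehyde, and Rdh10, which makes it, were lower, with log2 differences of -1.46 and -2.00. Besides Aldh1a3, the retinol carrier Rbp4 (4.10 and 5.49), the dehydrogenase Dhrs9 (log2 difference 1.19) and the receptor Rarg (0.69) were higher. Among the membrane-bound glutathione transferases and their relatives, Mgst3 was lower, at 8.81 and 6.67 (log2 difference -2.14), and Ltc4s was lower (-0.51), whereas Mgst1 was higher (0.82). Of 10 efflux pumps 4 were lower and 2 higher. The drug pump Abcg2 went from 6.19 to 3.99, Abcb1b had a log2 difference of -1.93 and Abcc3 of -1.24, while Abcc4 was higher (0.77).

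Of the 5 genes that supply or recycle UDP-glucuronate, 3 were lower: Slc35d2 (4.62 and 4.0), Gusb (log2 difference -0.62) and Ugdh (-0.50). Ugp2 was higher (log2 difference 0.36). Of 30 other phase I enzymes 4 were higher, led by Xdh (1.81) and Adh7 (0.89), and 2 were lower, among them Cyb5a (-0.83). Of 14 sulfo-, methyl- and acetyltransferases 1 was higher and 3 lower, Tpmt (-0.79) and Papss1 (-0.48) among them. Of 9 genes of arachidonate and epoxide metabolism, Ptgs2 was higher (0.49) and Lta4h lower (-0.40).

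**Figure D5:**
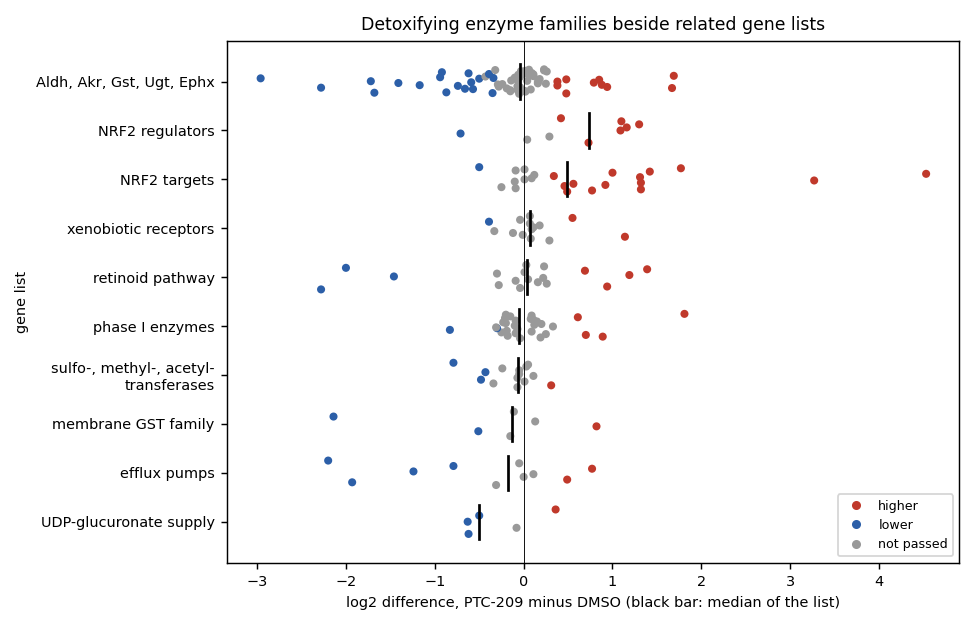
Log2 difference (PTC-209 minus DMSO) of each measured gene, 1 point per gene, for the 69 members and 9 related lists, with a black bar at the list median. The NRF2 target list has its median at 0.49 and the 69 members at -0.042, with members spread from -2.96 to 1.69.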

How the data were processed

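Total RNA of 6 samples was hybridised to Affymetrix arrays; groups came from the sample titles. The deposited values are log2 expression that the authors made with RMA, per the submitters' processing notes, with its version and a genome build not given in the sources used here. Of 34760 deposited probe sets, a block of 6568, called the control block here, was left out. It was inferred from the order of the identifiers, as a leading block without a listed gene. The other 28192 were tested in 1 fit of PTC-209 against DMSO with limma 3.58.1 in R 4.3.3 (lmFit, eBayes). P-values were adjusted by Benjamini-Hochberg over all 28192, and genes were called at an adjusted p under 0.05. Confidence intervals are limma's 95% intervals. Each gene was its brightest probe set by the mean of the 6 arrays; the probe sets listing several genes were left out of the counts. The fit was tested on simulated data. The number of arrays, 3 per group, limits the precision.

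The members and lists were chosen with earlier results of these data known. Every member past the threshold is named, with array values for the 14 largest differences whose brighter group exceeds the median and for the brightest gene of each family. Array values are also given for Akr1b8, Akr1b10, Gsta4 and Gstm1, chosen after their values were seen. Of the rest the 8 brightest are named, together with those having discordant probe sets and others chosen after their values were seen. Related lists name up to 4 genes past the threshold, besides Nfe2l2, Keap1, Ahr, Nr1i2, Nr1i3 and Ppara, named whatever they did, and Bach1, Dhrs9, Rarg and Nqo1, chosen after their values were seen. Alternatives were another prior, dim probe sets left out, 3 renormalisations, a replicate block, a test against a 1.2-fold change, the mean of a gene's probe sets, the control block kept and each array left out. Figures were drawn with matplotlib 3.10.9.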

Additional observations from a re-analysis of the deposited data

How the results depend on the processing

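Tested against a 1.2-fold change in place of no change, 6 members were higher and 10 lower, in place of 10 and 18. The other settings with all arrays gave 9 to 10 higher and 17 to 19 lower, and leaving out 1 array gave 8 to 10 and 15 to 17. With the replicate block, 10 were higher and 19 lower. Same-numbered arrays deviated together with correlations of 0.231, 0.070 and 0.073, and arrays of different numbers with -0.163 to 0.105. Whether same-numbered arrays share more than a number cannot be told from so few pairs. No member changed direction while called. Of the 28 members past the threshold 16 kept their call in every setting. The 1.2-fold test ended the calls of the other 12: Aldh2, Aldh9a1, Aldh7a1, Aldh1l1, Akr1b8, Akr1b10, Akr1e1, Akr7a5, Gsta4, Gstm1, Gstm3 and Gstt3. With the control block kept, Aldh2 (adjusted p = 0.0728) and Gstt3 (0.0570) missed the threshold. Ugt3a1 (adjusted p = 0.0572) passed with the trended prior, quantiles and cyclic loess (0.0482, 0.0353 and 0.0317), Gstm7 (0.109) with the replicate block (0.0499) and without DMSO replicate 2 (0.0387), and Aldh3b1 without PTC-209 replicate 3 (0.0333). The median difference of all probe sets was 0.033, and 0.003 to 0.046 over the settings.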

Other observations

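Of the probe sets for these families, 9 list several genes and stand outside the 69 members. Each of 3 lists 4 genes, among them Gsta1 and Gsta2, so that no single gene can be named from them. All 3 were higher with PTC-209: 8.93 against 10.71 (3.44-fold, adjusted p = 1.14e-05), 7.98 against 9.49 (2.86-fold, adjusted p = 8.33e-06) and 6.08 against 7.35 (2.42-fold, adjusted p = 2.84e-04), DMSO first, with 3 arrays per group. The 6 others did not pass, among them the probe set shared by 8 Ugt1a genes, which was dim at 3.93 and 3.88 (adjusted p = 0.796), and both probe sets shared by Gstp1 and Gstp2 (adjusted p = 0.482 and 0.650).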
